A study of Homo sapiens with 8 samples.

Results

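Blood clotting and the breakdown of clots rest on proteins that the liver secretes into plasma and on a smaller set that cells make locally. Of 36 listed genes of coagulation and fibrinolysis, 34 were measured here, out of 18404 named genes on the arrays. The list was set by gene symbol and not by a cut on the measured values, but with earlier results of these data known. Each gene was read from a probe set that carries its symbol and no other. SERPINB2 and F2RL1 were not analysed here. The cells were HepG2, a liver tumour line that keeps many hepatocyte functions, grown in medium with serum. In the H2O2 group, 4 cultures received 0.5 mM H2O2 for 60 minutes, an oxidant dose meant to induce senescence, a lasting arrest of division. In the untreated group, 4 cultures received medium alone for the same time. Both groups were then washed and kept for 5 days before the senescent state was examined; no separate time is given for RNA collection. The 4 cultures of each condition are described by the submitters as biological replicates, and all come from the same tumour line.

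In the clotting cascade, inactive zymogens are cut in turn into active proteases, and thrombin at the end turns fibrinogen into fibrin. Several zymogens need a vitamin K-dependent modification to bind membranes, and antithrombin, the protein C system and other inhibitors hold the cascade in check. Fibrin is dissolved by plasmin, which urokinase and tissue plasminogen activator release from plasminogen. Hepatocytes make most of the plasma factors, while plasminogen activators, the urokinase receptor and thrombin receptors are made by many cell types and by tumour cells. The 34 measured genes comprise 23 liver-made plasma factors, 4 genes of plasminogen activation, 5 genes of cell-bound initiation and control of clotting, and 2 genes of the vitamin K cycle.

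Liver-made factors were mostly lower and plasminogen activation genes were all higher in H2O2-treated cells. Among the 23 liver-made factors 13 fell, 2 rose and 8 did not pass the test, with a median log2 difference of -0.31, H2O2 minus untreated. All 4 measured genes of plasminogen activation rose, with a median log2 difference of 1.18. Of the 34 genes, SERPINE2, a cell-made inhibitor of thrombin and of the plasminogen activators, rose most, by 2.52 ± 0.11 on the log2 scale. PLG, plasminogen, fell most, by 1.22 ± 0.093. A change was called where the adjusted p of limma, fitted to all genes and adjusted over them by Benjamini-Hochberg, was under 0.05, and errors of differences are standard errors with n = 4 arrays in each group.

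The background of this comparison is broad. Of all 18404 genes, 34% were called, 19.2% higher and 14.8% lower, and the median difference was -0.02. Against that, 22 of the 34 clotting genes were called, 8 higher and 14 lower. Falls thus took 56.5% of the liver-made factors and 14.8% of all genes. With dim genes left out, the share of falls was 22.9% of the 11395 genes kept, and 14 liver-made factors fell. That setting dropped 4 of the 23 liver-made factors, F13B, F9, KLKB1 and HRG, so the 14 are not out of 23. FGG and F12 were called lower only there among these 2 settings. By at least 0.5 on the log2 scale, 5 liver-made factors fell, against 4.83% of all genes, and 6 clotting genes rose, against 7.22% of all genes. The groups did not overlap for 22 of the 34 genes, 8 higher and 14 lower, and for 33.7% of all genes, 18.9% higher and 14.8% lower. In whole cultures of this line, fewer cells that express a gene and less RNA per cell cannot be told apart.

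**Figure D1:**
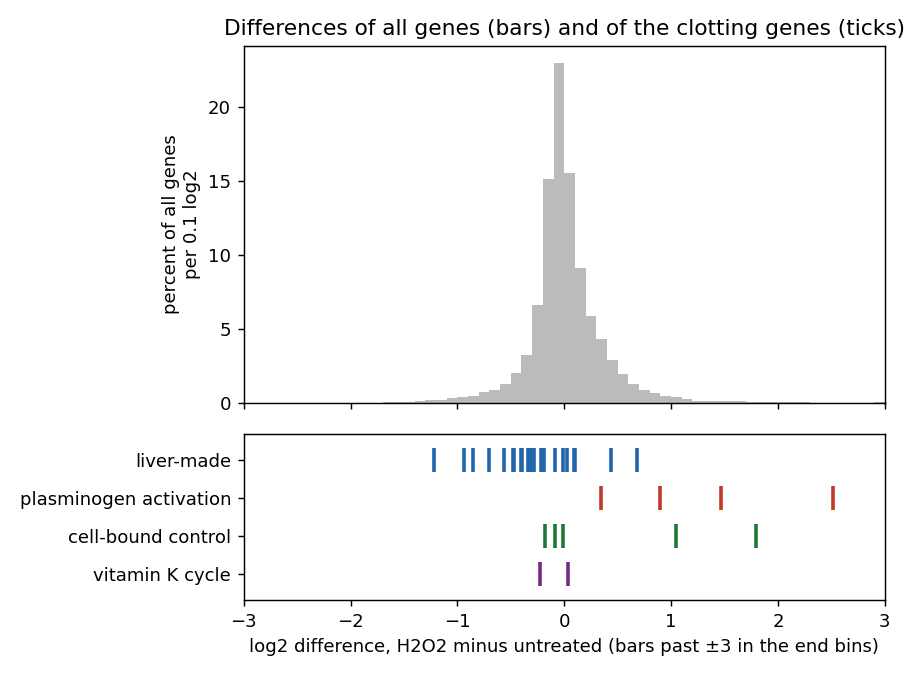
The bars give the percent of all 18404 genes in each step of 0.1 log2, and the ticks below give each of the 34 clotting genes by group; the horizontal axis is the log2 difference, H2O2 minus untreated. Most liver-made factors lie to the left of 0 with a median of -0.31, and all 4 plasminogen activation genes lie to the right of it with a median of 1.18.

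The arrays were alike in scale, with medians between 6.85 and 6.93 log2 units. Pearson's r over all probe sets, which are not independent, was 0.990 to 0.996 within a group and 0.979 to 0.985 between groups. The hepatocyte identity of the line was visible in its markers, since all 7 measured of 8 listed, among them ALB and AFP, lay above the array median on every array. Of these markers 4 fell and 1 rose, against 14.8% of all genes called lower and 19.2% called higher. The mean level over the list was 11.78 to 11.99 on H2O2 arrays against 12.12 to 12.19 on untreated arrays. Within the H2O2 group, replicates 3 and 4 stood apart from replicates 1 and 2 for the plasma factors. Both were below both of the others in 20 of the 23 liver-made factors, against 26.1% of all genes. The median deviation of the 23 genes from their untreated means was -0.23 and -0.21 on H2O2 replicates 1 and 2, and -0.38 and -0.41 on H2O2 replicates 3 and 4. With H2O2 replicates 3 and 4 left out, a setting chosen after seeing the data, 9 liver-made factors fell, against 13.3% of all genes, and with H2O2 replicates 1 and 2 left out 15 fell, against 12.8% of all genes. The 4 rises in plasminogen activation were called in both cases.

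**Figure D2:**
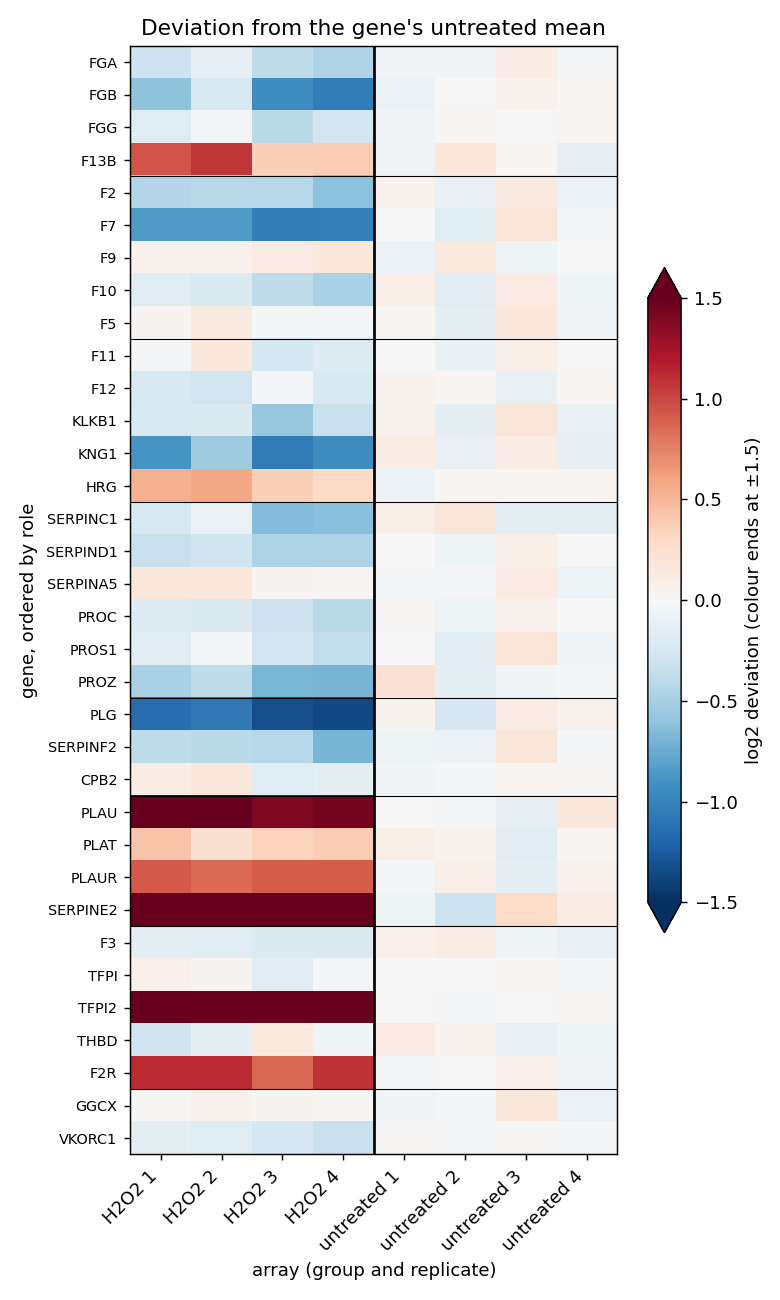
Each row is a clotting gene, ordered by role, and each column an array; colour gives the log2 deviation from that gene's untreated mean, with the colour scale ending at ±1.5. The blue block of liver-made factors is deeper on H2O2 replicates 3 and 4 than on H2O2 replicates 1 and 2, and PLAU, PLAUR, SERPINE2, TFPI2 and F2R are red on all 4 H2O2 arrays.

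To show the control regions of genes that moved, 250 bases before the start of 3 called genes are printed here in RefSeq's sequence of assembly GRCh38.p14, in gene orientation, with motif matches in capitals. The windows were picked because they hold such a match. SERPIND1 (chr22:20773863-20774112, plus strand) and PROZ (chr13:113158398-113158647, plus strand) fell and hold CAAAGTNCA, an element of the liver receptor HNF4, which in PROZ lies on the reverse strand. PLAUR (chr19:43670170-43670419, minus strand) rose and holds TGAGTCA, the element of the AP-1 factors.
SERPIND1: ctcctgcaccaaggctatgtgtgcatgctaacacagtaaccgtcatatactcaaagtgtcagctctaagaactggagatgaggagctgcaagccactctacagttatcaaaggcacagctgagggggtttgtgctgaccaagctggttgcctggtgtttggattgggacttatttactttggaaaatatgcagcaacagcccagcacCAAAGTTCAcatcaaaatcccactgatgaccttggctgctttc
PROZ: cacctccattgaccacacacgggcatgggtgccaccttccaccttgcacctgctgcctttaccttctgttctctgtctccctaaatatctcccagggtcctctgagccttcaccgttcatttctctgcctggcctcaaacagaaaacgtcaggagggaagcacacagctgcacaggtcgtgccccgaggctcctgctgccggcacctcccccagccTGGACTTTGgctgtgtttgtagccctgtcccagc
PLAUR: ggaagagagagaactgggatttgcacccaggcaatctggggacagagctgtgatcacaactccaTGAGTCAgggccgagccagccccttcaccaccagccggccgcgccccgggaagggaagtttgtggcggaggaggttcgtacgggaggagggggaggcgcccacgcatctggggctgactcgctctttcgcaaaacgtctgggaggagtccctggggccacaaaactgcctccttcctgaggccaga

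Promoter windows were found for 29 of the 34 measured genes, and both strands were searched. In SERPIND1 and PROZ the HNF4 element began 43 and 34 bases before the start, and the AP-1 element began 186 bases before it in PLAUR. The HNF4 element was found in SERPIND1 and PROZ, which fell, and in F9, which was not called, and in 1.17% of all genes. The AP-1 element, TGAGTCA or its reverse complement TGACTCA, was found in PLAUR and in F3, which was not called, in 0 of the 21 liver-made factors with a window, and in 5.19% of all genes. A match is a description of these letters and not a binding site. Of 6 measured liver transcription factors, FOXA2 (-0.54 ± 0.067), ONECUT1 (-0.52 ± 0.065) and CEBPA (-0.45 ± 0.077) fell and none rose. Of all genes, 14.8% were called lower and 19.2% higher.

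**Figure D3:**
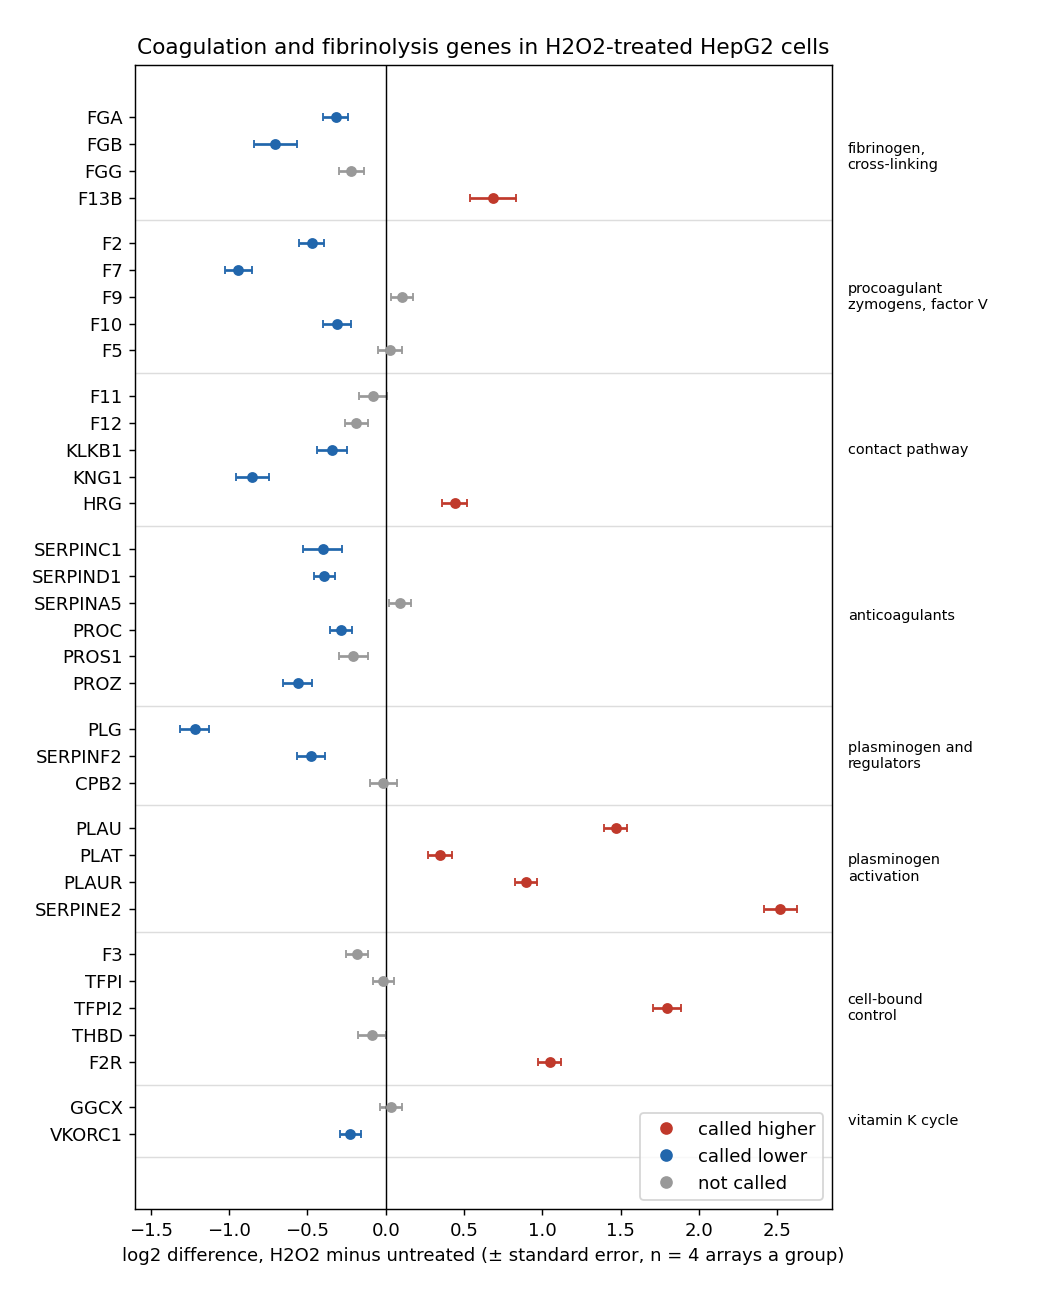
Points give the log2 difference of each of the 34 clotting genes, H2O2 minus untreated, with standard errors (n = 4 arrays in each group), ordered by role; blue was called lower, red called higher and grey not called. Differences run between -1.22 for PLG and 2.52 for SERPINE2.

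Fibrinogen, the precursor of the clot, is built from the chains encoded by FGA, FGB and FGG, which stand side by side on chromosome 4. FGB had log2 values of 10.81, 11.17, 10.49 and 10.37 in H2O2-treated cells, against 11.33, 11.41, 11.48 and 11.45 in untreated cells. All H2O2 arrays lay below all untreated arrays, and the 2 lowest were H2O2 replicates 3 and 4. FGB fell by 0.71 ± 0.14 (limma adjusted p = 0.00106). The difference was -0.42 with H2O2 replicates 3 and 4 left out and -0.99 with H2O2 replicates 1 and 2 left out, called in both cases. FGA fell by 0.32 ± 0.080, a call that was lost with H2O2 replicates 3 and 4 left out (-0.22, limma adjusted p = 0.0788). FGG differed by -0.22 ± 0.081, just outside the threshold (limma adjusted p = 0.0509). The FGB value minus the FGG value within each array averaged -0.70 ± 0.23 in H2O2-treated cells and -0.22 ± 0.041 in untreated cells (SD, n = 4 each, two-sided exact permutation p = 0.0286, adjusted over 6 gene pairs 0.0343). The measured values of the chains thus shifted unequally, FGB more than FGG. Whether the probe sets of different genes respond alike was not tested. For FGA minus FGG the same test gave p = 0.143 by exact permutation, with means of 0.31 ± 0.089 in H2O2-treated and 0.41 ± 0.074 in untreated cells (SD, n = 4 each). With 4 arrays against 4, the smallest p this test can give is 0.0286.

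F13B encodes the carrier subunit of factor XIII, the enzyme that cross-links fibrin. Its log2 values were 5.84, 5.96, 5.25 and 5.26 in H2O2-treated cells, against 4.83, 5.04, 4.92 and 4.76 in untreated cells. The groups did not overlap, and F13B rose by 0.69 ± 0.14 (limma adjusted p = 0.00203). H2O2 replicates 1 and 2 were the higher ones, and the difference was 0.36 with them left out and 1.01 with H2O2 replicates 3 and 4 left out, called in both cases. It lay below the array median on all 8 arrays, and no background estimate shows whether that level is signal.

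Of the procoagulant zymogens that depend on vitamin K, F7 changed most. F7, factor VII, the partner of tissue factor that starts clotting, had log2 values of 9.189, 9.188, 8.997 and 9.007 in H2O2-treated cells, against 10.036, 9.853, 10.247 and 10.009 in untreated cells. Every H2O2 array was below every untreated array, and F7 was 1.92-fold lower (log2 difference -0.94 ± 0.088, limma adjusted p = 1.87e-06). F2, prothrombin, fell by 0.47 ± 0.077, to a mean of 10.38 ± 0.093 in H2O2-treated cells, against 10.85 ± 0.12 in untreated cells (SD, n = 4 each). F10, factor X, which with factor V turns prothrombin into thrombin, fell by 0.31 ± 0.090 (limma adjusted p = 0.0148). That call was lost without H2O2 replicate 4 (limma adjusted p = 0.0563), without untreated replicate 1 (0.0516), and with H2O2 replicates 3 and 4 left out (-0.19, limma adjusted p = 0.147). F5, the cofactor factor V, differed by 0.03 ± 0.076. F9, factor IX, differed by 0.10 ± 0.071 and lay far below the array median in both groups, at 3.93 ± 0.048 in H2O2-treated and 3.82 ± 0.11 in untreated cells (SD, n = 4 each).

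F7, F10 and PROZ lie close together on chromosome 13, with 1 other protein-coding gene between F10 and PROZ in RefSeq's annotation. All 3 fell, but not equally. The F7 value minus the F10 value averaged -1.61 ± 0.064 in H2O2-treated cells and -0.98 ± 0.086 in untreated cells (SD, n = 4 each, exact permutation p = 0.0286, adjusted over the 6 pairs 0.0343). F7 minus PROZ averaged 1.37 ± 0.057 in H2O2-treated cells and 1.75 ± 0.20 in untreated cells (SD, n = 4 each), with the same exact permutation p. The measured value of F7 therefore fell more than that of either neighbour, each read from its own probe set.

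In the contact pathway, which starts clotting on charged surfaces, KNG1 moved most. KNG1, kininogen, the cofactor of the pathway and the source of bradykinin, had log2 values of 6.53, 6.87, 6.36 and 6.48 in H2O2-treated cells, against 7.53, 7.30, 7.53 and 7.29 in untreated cells. The groups did not overlap, and KNG1 fell by 0.85 ± 0.10 (limma adjusted p = 2.24e-05). On 3 of the 4 H2O2 arrays KNG1 lay below the array median. KLKB1, plasma prekallikrein, fell by 0.34 ± 0.094 from below the array median, and lost its call with H2O2 replicates 3 and 4 left out (-0.23, limma adjusted p = 0.0900). F11, factor XI, differed by -0.08 ± 0.090, and F12, factor XII, by -0.19 ± 0.076 (limma adjusted p = 0.0729). HRG, histidine-rich glycoprotein, a plasma protein that binds heparin and plasminogen, rose by 0.44 ± 0.078. Its level was 5.31 ± 0.14 in H2O2-treated cells and 4.87 ± 0.060 in untreated cells (SD, n = 4 each), below the array median on all arrays.

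HRG and KNG1 are neighbours on chromosome 3 and moved in opposite directions. HRG minus KNG1 within an array averaged -1.25 ± 0.15 in H2O2-treated cells and -2.55 ± 0.17 in untreated cells (SD, n = 4 each, exact permutation p = 0.0286, adjusted over the 6 pairs 0.0343). The groups of HRG and of KNG1 did not overlap, in opposite directions, so this test could only give its smallest p. It adds nothing to the calls of HRG and KNG1. The pairs were chosen with earlier results of these data known. The measured values of the neighbours KLKB1 and F11 on chromosome 4 also shifted unequally. KLKB1 minus F11 was -4.39 ± 0.10 in H2O2-treated and -4.13 ± 0.096 in untreated cells (SD, n = 4 each, exact permutation p = 0.0286).

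Liver-made anticoagulants fell as well, 4 of 6 of them, and none rose, against 14.8% of all genes called lower and 19.2% called higher. PROZ, protein Z, a cofactor for the inhibition of factor Xa, had log2 values of 7.80, 7.90, 7.60 and 7.60 in H2O2-treated cells, against 8.51, 8.14, 8.24 and 8.26 in untreated cells. No H2O2 array reached an untreated one, and PROZ fell by 0.56 ± 0.093 (limma adjusted p = 0.000299). SERPIND1, heparin cofactor II, an inhibitor of thrombin, fell by 0.39 ± 0.069. PROC, protein C, which once activated cuts factors V and VIII, fell by 0.29 ± 0.070, a call lost with H2O2 replicates 3 and 4 left out (-0.21, limma adjusted p = 0.0586). SERPINC1, antithrombin, the main plasma inhibitor of thrombin and factor Xa, fell by 0.40 ± 0.12 (limma adjusted p = 0.0221), but its groups overlapped. The highest H2O2 value was 10.34 and the lowest untreated value 10.29. Its call was lost without H2O2 replicate 3 or 4, without untreated replicate 1 or 2 (limma adjusted p = 0.0566 to 0.0769), with all probe sets in the fit (limma adjusted p = 0.0709), and with H2O2 replicates 3 and 4 left out (-0.17, limma adjusted p = 0.256). With H2O2 replicates 1 and 2 left out the difference was -0.64. PROS1, protein S, the cofactor of protein C, differed by -0.21 ± 0.093 and is uncertain because it has a near-identical pseudogene. Another, dimmer probe set of PROS1 differed by -0.33 ± 0.13. It was not called in a fit of all probe sets with 1 symbol (limma adjusted p = 0.0756). SERPINA5, the protein C inhibitor, differed by 0.09 ± 0.070.

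Plasminogen itself was the most reduced of the 34 genes. PLG had log2 values of 6.84, 6.90, 6.66 and 6.62 in H2O2-treated cells, against 8.03, 7.73, 8.10 and 8.04 in untreated cells. The groups were far apart, and PLG was 2.33-fold lower (log2 difference -1.22 ± 0.093, limma adjusted p = 2.83e-07). On 3 of the 4 H2O2 arrays it lay below the array median, which limits how exactly the fold is known. PLG has near-identical relatives, so its value is uncertain. A probe set shared by PLG and 3 of these relatives averaged 5.08 ± 0.31 in H2O2-treated cells and 6.42 ± 0.23 in untreated cells, and another, shared with 4, averaged 5.25 ± 0.21 in H2O2-treated cells and 5.78 ± 0.16 in untreated cells (SD, n = 4 each). SERPINF2, alpha-2-antiplasmin, the main inhibitor of plasmin, fell by 0.48 ± 0.087 (limma adjusted p = 0.000680). CPB2, which encodes a carboxypeptidase that protects fibrin from plasmin, differed by -0.01 ± 0.083.

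**Figure D4:**
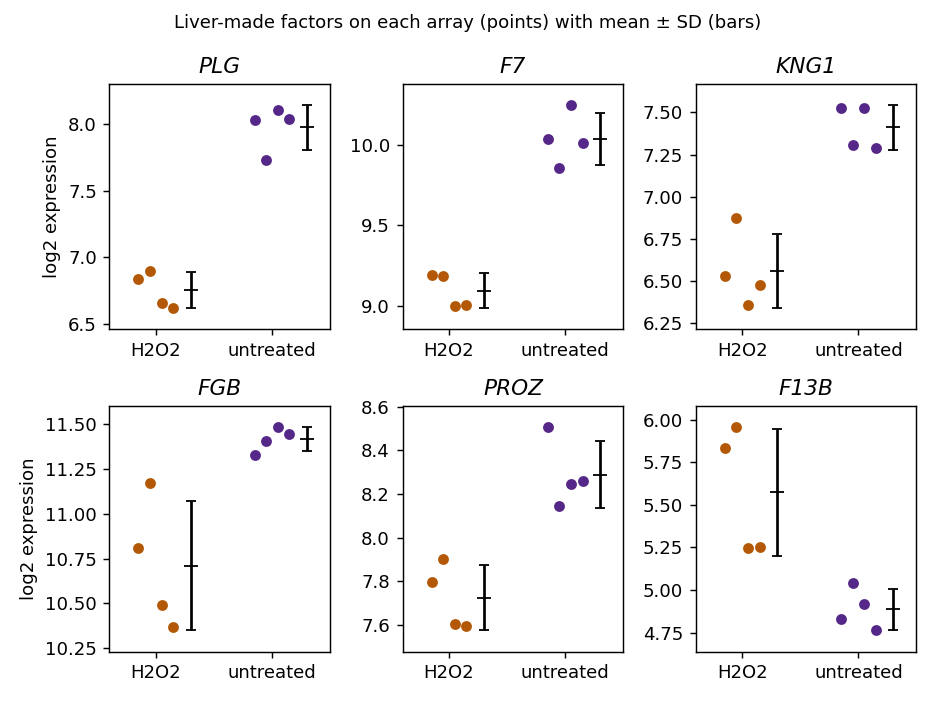
Log2 expression on each array (points) with mean ± SD (bars), H2O2 left and untreated right, for the 6 liver-made factors that were called with a difference of at least 0.5. The H2O2 points lie below the untreated points for PLG, F7, KNG1, FGB and PROZ and above them for F13B.

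Plasminogen activation ran the other way. PLAU, urokinase, which cuts plasminogen to plasmin at the cell surface, had log2 values of 8.04, 8.02, 7.91 and 7.94 in H2O2-treated cells, against 6.51, 6.47, 6.38 and 6.66 in untreated cells. The gap between the groups was far wider than the spread within them, and PLAU was 2.77-fold higher (log2 difference 1.47 ± 0.073, limma adjusted p = 4.26e-09). In untreated cells PLAU lay below the array median on all 4 arrays.

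PLAUR, the receptor that holds urokinase on the cell, had log2 values of 8.22, 8.15, 8.20 and 8.21 in H2O2-treated cells, against 7.29, 7.39, 7.16 and 7.37 in untreated cells. The H2O2 arrays were nearly identical to each other and all above the untreated ones, and PLAUR rose by 0.90 ± 0.069 (limma adjusted p = 3.13e-07). PLAT, the tissue plasminogen activator, had log2 values of 7.24, 7.04, 7.14 and 7.18 in H2O2-treated cells, against 6.89, 6.86, 6.64 and 6.83 in untreated cells. PLAT rose by 0.35 ± 0.075 (limma adjusted p = 0.00255), the smallest of the 4 rises. On 3 of the 4 untreated arrays PLAT lay below the array median.

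SERPINE2, protease nexin-1, acts against these activators and against thrombin. It had log2 values of 10.67, 10.67, 10.70 and 10.77 in H2O2-treated cells, against 8.11, 7.87, 8.46 and 8.30 in untreated cells. Every H2O2 array exceeded every untreated array by more than 2 log2 units, and SERPINE2 was 5.73-fold higher (log2 difference 2.52 ± 0.11, limma adjusted p = 7.85e-10). Both activators, the urokinase receptor and an inhibitor of the activators were thus higher while the substrate PLG was lower.

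**Figure D5:**
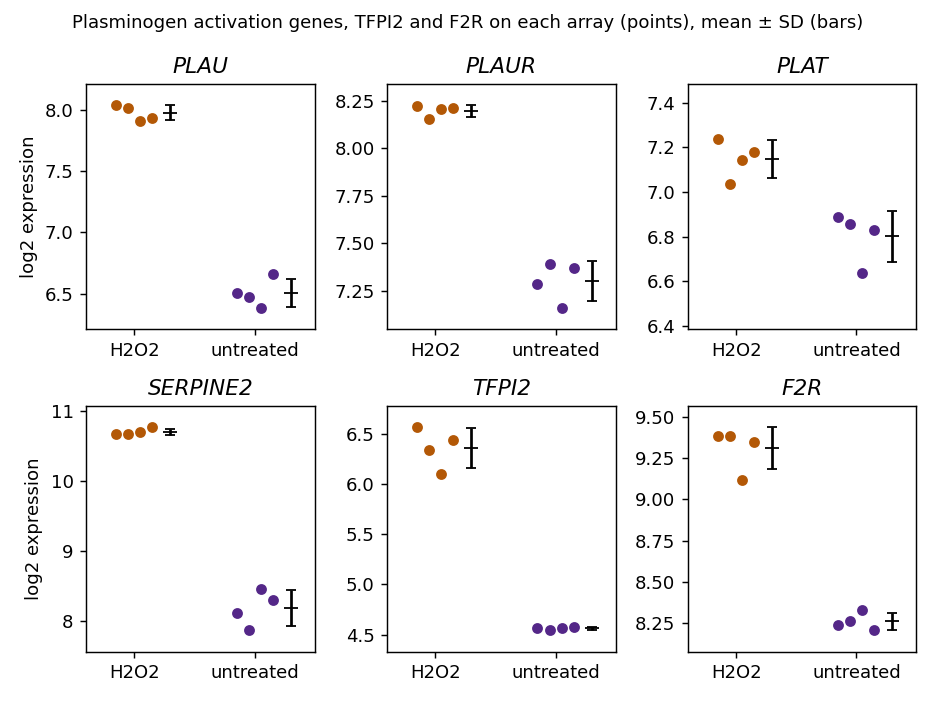
Log2 expression on each array (points) with mean ± SD (bars), H2O2 left and untreated right, for the 4 measured plasminogen activation genes and for TFPI2 and F2R. All H2O2 points lie above all untreated points in each of the 6 panels.

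Among the cell-bound genes of clotting, 2 of 5 rose and none fell, against 19.2% of all genes called higher and 14.8% called lower. TFPI2, a secreted protease inhibitor that acts on plasmin and is laid down in the matrix, had log2 values of 6.56, 6.34, 6.10 and 6.43 in H2O2-treated cells, against 4.57, 4.54, 4.56 and 4.58 in untreated cells. The groups did not overlap, and TFPI2 rose by 1.79 ± 0.088 on the log2 scale (limma adjusted p = 3.77e-09). It lay below the array median on all 8 arrays, and no background estimate shows whether its untreated level is signal, so how many-fold it rose is not known. Its relative TFPI, the inhibitor of the tissue factor and factor VIIa complex, differed by -0.01 ± 0.069.

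F2R, the thrombin receptor PAR1, had log2 values of 9.38, 9.38, 9.12 and 9.35 in H2O2-treated cells, against 8.24, 8.26, 8.33 and 8.21 in untreated cells. The groups did not overlap, and F2R was 2.07-fold higher (log2 difference 1.05 ± 0.075, limma adjusted p = 1.55e-07). F3, tissue factor, the membrane protein that starts clotting, averaged 6.63 ± 0.034 in H2O2-treated cells and 6.81 ± 0.11 in untreated cells (SD, n = 4 each). Its groups did not overlap, yet it did not pass (-0.18 ± 0.069, limma adjusted p = 0.0590), and it passed without untreated replicate 3 or 4. F3 lay below the array median on 7 of the 8 arrays. THBD, thrombomodulin, which turns thrombin towards protein C, differed by -0.09 ± 0.092 and lay below the array median on all arrays.

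The 2 listed genes of the vitamin K cycle changed little. VKORC1, which regenerates reduced vitamin K and is the target of warfarin, fell by 0.23 ± 0.066 (limma adjusted p = 0.0164). Its call was lost without H2O2 replicate 4 (limma adjusted p = 0.0653) and with H2O2 replicates 3 and 4 left out (-0.16, limma adjusted p = 0.132). GGCX, the carboxylase that modifies the zymogens, differed by 0.03 ± 0.070. VKORC1L1, counted with the further genes of the pathway below, fell more than VKORC1, by 0.38 ± 0.077 (limma adjusted p = 0.00133). It was named after its value was seen.

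Of 24 measured genes in a list of 25 further genes of the pathway, 7 rose and 5 fell, with a median log2 difference of 0.05. Of all genes, 19.2% were called higher and 14.8% lower. PROCR, the endothelial protein C receptor (0.88 ± 0.064), and THBS1, thrombospondin-1, an adhesive matrix glycoprotein (0.94 ± 0.076), rose, as did FURIN, a protease that removes propeptides (0.67 ± 0.087). HPN, hepsin, a protease of the hepatocyte surface, fell by 0.51 ± 0.097. LMAN1 and MCFD2 form the receptor that carries factors V and VIII out of the endoplasmic reticulum. LMAN1 fell by 0.45 ± 0.073 whereas MCFD2 rose by 0.18 ± 0.063. These 6 were chosen after their values were seen.

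Markers of other cell types that make plasminogen activators or thrombin receptors were read beside the rises. Their counts stand against 19.2% of all genes called higher and 14.8% called lower. Of 10 endothelial markers 2 rose and 1 fell, and the mean level over the list was 6.47 to 6.68 on H2O2 arrays against 6.27 to 6.33 on untreated arrays. The 2 that rose were the receptor TIE1 (1.67 ± 0.077) and the adhesion protein ESAM (1.59 ± 0.088), and CDH5 fell (-0.25 ± 0.073). PECAM1 differed by 0.11 ± 0.095, and 5 of the 10 lay below the array median on all arrays. Of 8 fibroblast and stellate cell markers 2 rose and 1 fell, with a mean of 6.68 to 6.93 on H2O2 arrays against 6.64 to 6.74 on untreated arrays. ACTA2, smooth muscle actin, rose by 1.50 ± 0.072 and PDGFRB, a growth factor receptor, fell by 1.15 ± 0.088. Of 8 macrophage and leukocyte markers 2 rose and none fell, at 7.39 to 7.52 on H2O2 arrays against 7.34 to 7.38 on untreated arrays. None of 7 measured platelet and megakaryocyte markers was called, at 6.13 to 6.39 on H2O2 arrays against 6.25 to 6.35 on untreated arrays. The median log2 difference was -0.10 over the endothelial list and -0.04 over the fibroblast list. It was -0.06 over both the leukocyte and the platelet lists. All cultures were of the same tumour line, HepG2, and whether they held any cells of other types was not tested.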

How the data were processed

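Single-channel whole-transcript arrays were hybridised with biotin-labelled sense cDNA made from total RNA, per the labels' protocols. The authors deposited log2 expression values per probe set; the labels do not say how probes were summarized or arrays normalized, and the submitters' processing notes name limma without a role. No background estimate or detection call was used. The number of arrays limits the precision. Of 32321 probe sets, 19158 carry 1 gene symbol in the platform annotation, 1388 several and 11775 none. A gene with several probe sets was read from the brightest on average over all 8 arrays. All 34 measured members matched RefSeq by identifier.

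Groups were compared with limma 3.58.1 in R 4.3.3 (1 mean per group, empirical Bayes, Benjamini-Hochberg over 18404 genes, call at adjusted p under 0.05), tested on simulated data first. Within-array differences of 6 neighbouring gene pairs used two-sided exact permutation over 70 regroupings. Promoters came from RefSeq, GRCh38.p14. Python 3.11.15 made tables and figures.

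All 36 members are named. Values on every array are given for those called with a difference of at least 0.5 and for plasminogen activation; other lists are counted. Members, lists, pairs and motifs were chosen with earlier results of these data known. Alternatives were the replicate number as a block, quantile normalization, median centring, leaving out dim genes (kept: above the array median on at least 4 arrays), a variance trend, the mean of probe sets, all probe sets in the fit, a minimum difference of 0.5, and each array left out. Results for another promoter motif are not reported here.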

Additional observations from a re-analysis of the deposited data

Results flagged for a closer look

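In 5 of 68 groups of 4 arrays, 1 array lay far from the other 3, where chance flags about 1 in 20 groups. In H2O2-treated cells these were F2 at 10.24 on replicate 4 (nearest other array 10.41), SERPINF2 at 10.39 on replicate 4 (nearest 10.65) and F2R at 9.12 on replicate 3 (nearest 9.35). In untreated cells they were F12 at 7.23 on replicate 3 (nearest 7.38) and HRG at 4.78 on replicate 1 (nearest 4.89). The calls of F2, SERPINF2, F2R and HRG held without the array concerned. F12, not called with all arrays, was called without untreated replicate 3.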

How the results depend on the processing

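With dim genes left out, 7 members dropped out of the test by construction, 5 members were called higher in place of 8, and 0 liver-made factors were called higher in place of 2. Of the 11395 genes then tested, 28.2% were called higher and 22.9% lower. With a minimum difference of 0.5, 5 members were called lower in place of 14, all 5 liver-made, and 1 liver-made factor was called higher. With H2O2 replicates 3 and 4 left out, which leaves 2 H2O2 arrays, 9 members were called lower. Leaving out each array in turn gave 11 to 16 members lower and 8 higher. Same-numbered arrays did not share deviations from their group means (correlations between -0.25 and 0.09), which cannot show whether the cultures were paired by design. With the replicate number as a block 14 members were lower and 8 higher. Of 22 called members 16 kept their call in each of the other alternatives that could be run for them, and FGA, F10, KLKB1, SERPINC1, PROC and VKORC1 did not. With the minimum difference of 0.5 counted as well, 11 of the 22 kept it. Of the uncalled, FGG, F12, PROS1 and F3 were called in some settings. Differences near 0 changed sign. Leaving out each array in turn gave F5 -0.016 to 0.082, CPB2 -0.072 to 0.042 and TFPI -0.045 to 0.035. Quantile normalization gave CPB2 0.0062 and TFPI 0.021. With H2O2 replicates 3 and 4 left out, CPB2 was at 0.13, TFPI at 0.061 and F11 at 0.065, and with H2O2 replicates 1 and 2 left out F5 was at -0.028 and THBD at 0.038. The cause was not tested.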
